A study of Mus musculus with 4 samples.

Results

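The clustered protocadherins are adhesion proteins encoded by 3 neighbouring gene clusters, alpha, beta and gamma, on mouse chromosome 18. They were taken from the table by gene symbol, as every gene whose name is Pcdha, Pcdhac, Pcdhb, Pcdhga, Pcdhgb or Pcdhgc followed by a number. The rule gave 58 of the 48897 genes listed, 14 in the alpha cluster, 22 in the beta cluster and 22 in the gamma cluster. Each neuron expresses its own small set of them from separate promoters, the proteins bind like with like across cell contacts, and the shared set is read as a sign of self. In the retina the gamma cluster is known for dendrite self-avoidance of starburst amacrine cells and for the survival of several types of neuron. An alpha or gamma gene consists of 1 large variable first exon, which encodes the extracellular and transmembrane parts, spliced to 3 constant exons that all members of its cluster share. A beta gene has a single coding exon and shares none. The last members of the alpha and gamma clusters, Pcdhac1, Pcdhac2, Pcdhgc3, Pcdhgc4 and Pcdhgc5, are the C-type members, which are expressed more broadly than the others.

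Whole retinas of wild-type C57BL/6 mice (C57BL/6J in the methods) were compared at postnatal day 9 after an intravitreal injection at postnatal day 3. The left eye received 1 μl with 0.6 nmol of an antagomir against miR-124-3p (anti-miR-124 group) and the right eye the same amount of a scrambled antagomir (NC group), so that treatment and side of the eye cannot be told apart. Each group was sequenced as 2 libraries from pools of retinas out of more than 1 litter, and the column names join 1 library of each group into pair A (NC A and anti-miR-124 A) and the others into pair B (NC B and anti-miR-124 B). The comparison asks how retinal mRNA differs when miR-124-3p, an abundant neuronal miRNA, is blocked in the developing eye.

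The miRNA is cut from 3 hairpins, Mir124a-1 (chr14:64590657-64590741), Mir124a-2 (chr3:17795662-17795770) and Mir124a-3 (chr2:180894040-180894107; all GRCm38). All 3 hairpin sequences in the GENCODE transcripts hold the following 20 bases, shown because they begin 1 base before the seed of the blocked miRNA, and the capitals mark its 7 seed bases.
miR-124-3p stretch of the hairpins: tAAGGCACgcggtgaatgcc
A match to this seed reads GTGCCTT on the mRNA strand. The annotated 3′ UTR of 12.8% of 21039 mouse genes holds at least 1. All 14 alpha transcripts hold 1 match, but it is a single site, since they end in the same 3′ UTR of 2401 bases. None of the 22 gamma transcripts holds a match in a 3′ UTR of 1741 to 1744 bases. In the beta cluster 3 of 22 members, Pcdhb6, Pcdhb14 and Pcdhb16, hold 1 match each. Among all genes with a 3′ UTR near the median length of a cluster, the share with a match was 20.1% for the alpha, 12.4% for the beta and 16.7% for the gamma length. The beta share covers 970 to 1456 bases, whereas beta 3′ UTRs run from 71 to 6117 bases. Those of Pcdhb14 and Pcdhb16 hold 6117 and 2641 bases, so that 12.4% is no background for these members. A match is a string of letters and not a shown target site. The hairpin genes had 0 to 102 reads per library, and such reads do not measure the mature miRNA.

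The 4 libraries held 16317239 to 18726963 counted reads. Their rod markers summed to 6630 to 7901 TPM (reads scaled by gene length and library total), and no gene of the retinal cell type lists was at 0 in all libraries. Library NC A stood apart in its lens genes, which summed to 66989 TPM against 179 to 241 TPM in the other libraries. Library anti-miR-124 B stood apart in its microglial genes, which summed to 617 TPM against 203 to 251 TPM. Interferon-stimulated genes summed to 204 and 361 TPM in the anti-miR-124 libraries and to 72.5 and 81.9 TPM in the NC libraries. Cone markers summed to 533 and 400 TPM against 633 and 692 TPM. The part of these differences in the values of the members was not tested. In bulk tissue, fewer cells of a type and less RNA per cell cannot be told apart. Nothing in the labels says that the 2 libraries of a group come from separate mice, so that p-values measure the spread between these libraries only.

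Of the 58 members, 57 passed the filter on low counts and were tested among 17766 genes. Pcdhb1 was not, with 0 and 2 reads in the NC and 1 and 0 reads in the anti-miR-124 libraries. No member passed the test of a difference between the groups. In edgeR's quasi-likelihood test 0 of 57 passed an adjusted p of 0.05, as did 0 of all genes tested (0%), and no member had an unadjusted p under 0.05. Over all genes the unadjusted threshold was passed upward by 2.23% and downward by 1.68%. By DESeq2's Wald test 36 of all genes and no member passed after adjustment, and no member passed without it. The smallest member p was 0.0909 unadjusted and 0.989 adjusted, both for Pcdhb18, a member named after its values were seen. The median log2 fold change of the 57 members was 0.05, beside 0.00 over all genes tested.

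What the counts of a member measure differed between the clusters. In library NC A, the 14 alpha members had between 1450 and 1814 reads each and the 22 gamma members between 4596 and 5943. The 21 beta members tested had between 81 and 664. The highest alpha member exceeded the lowest by 1.22 to 1.28 times across the 4 libraries and the highest gamma member by 1.29 to 1.36 times, whereas in the beta cluster the ratio was 6.79 to 8.78. Alpha and gamma members were therefore almost level, as the plot of counts by member shows, while beta members were spread widely.

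**Figure D1:**
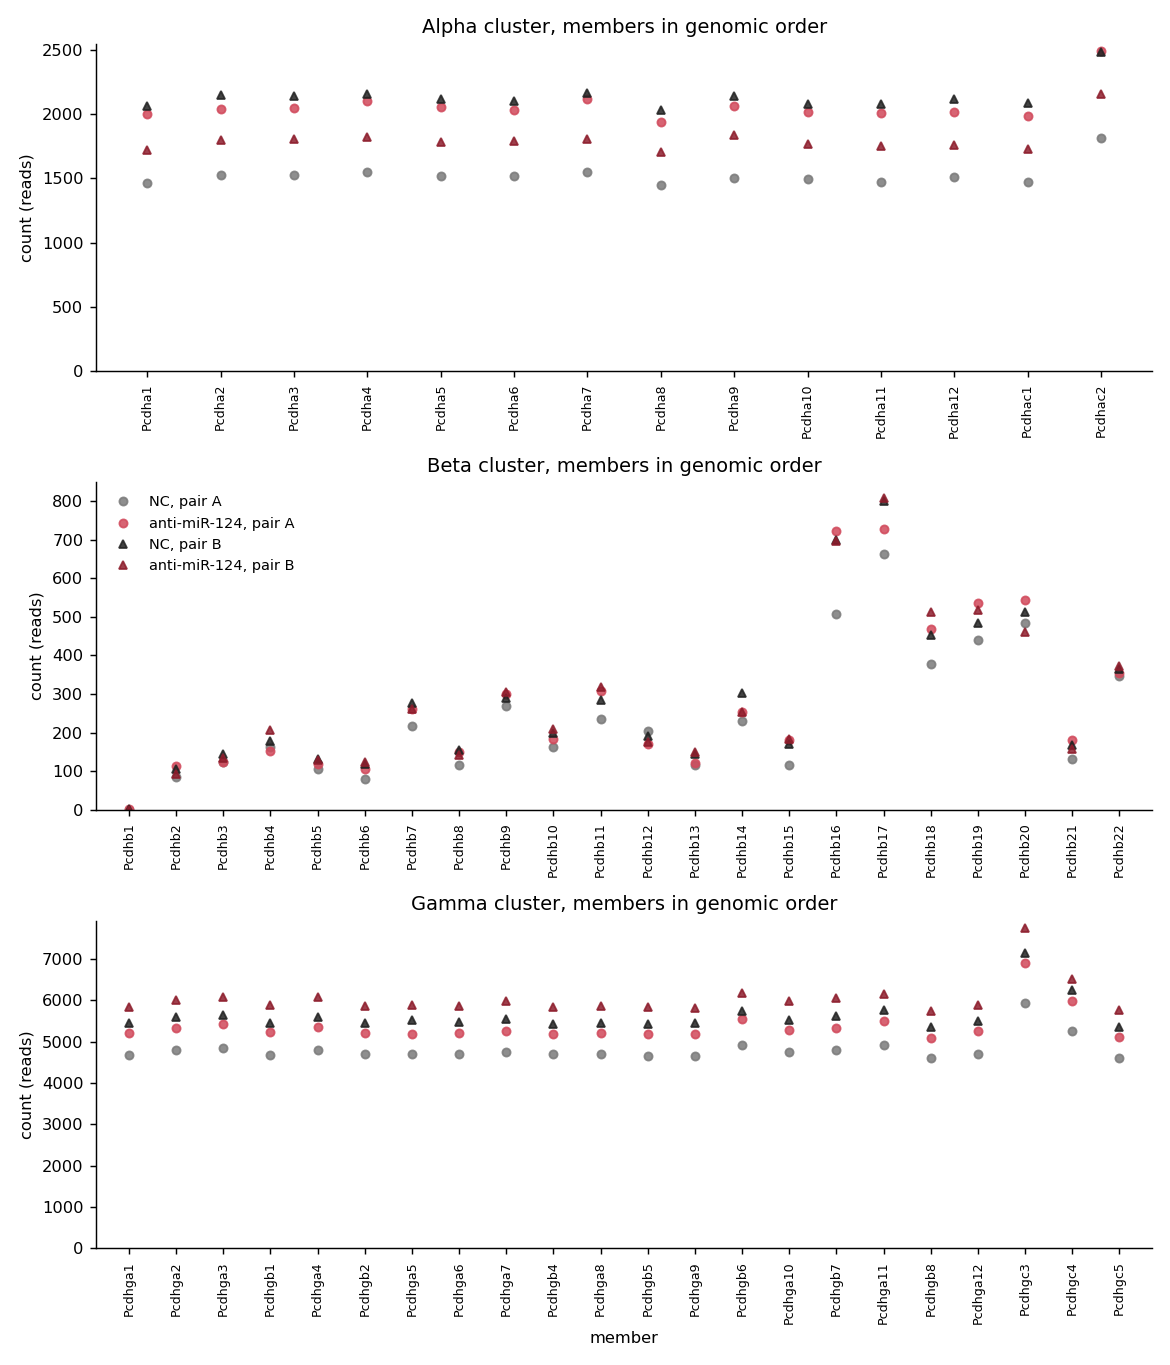
Read counts (vertical axes, linear from 0) of all 58 members in genomic order (horizontal axes), 1 panel per cluster, with 1 point per library; circles are pair A, triangles pair B, grey and black the NC and red the anti-miR-124 libraries. Alpha counts lie between 1450 and 2492 and gamma counts between 4596 and 7757 with nearly the same value for most members of a library, while tested beta members lie between 81 and 808.

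The gene models show what the members have in common. The alpha members share constant exons at 37156155-37156213, 37159265-37159353 and 37184946-37187657 of chromosome 18 (GRCm38, forward strand, 59, 89 and 2712 bases). The gamma members share exons at 37825021-37825079, 37833265-37833353 and 37839903-37841870 (59, 89 and 1968 bases). The shared exons made up 48.6% to 54.9% of an alpha and 41.7% to 45.9% of a gamma transcript. Rows of the table that join an alpha first exon to the gamma constant exons gave a check. Gm37013, Gm38666 and Gm38667 carry the first exons of Pcdha4, Pcdha6 and Pcdha7, and they exceeded those members by 3113, 3110 and 3120 reads in library NC A. In library NC B the excess was 3266, 3284 and 3277 reads. In the anti-miR-124 libraries it was 3098, 3106 and 3100 reads in pair A and 4010, 4003 and 4015 in pair B. Within each library the 3 differences were alike to within 8 to 18 reads, as they must be when each row counts the whole of the constant exons it contains. Added to the count of the lowest alpha member, the median difference came to 4563, 5041, 5308 and 5718 reads in the order NC and anti-miR-124 of pair A, then of pair B, which is 26 to 43 reads under the lowest gamma member. A read in the constant exons was thus counted once for every member, and every count of a cluster contains the same set of reads. The lowest member's count is an upper limit for those shared reads. The count of a member above the lowest one is a lower limit for the reads of its own first exon, on 2 conditions. No antisense reads and no reads of another member's first exon may be counted with it. First exons of 12 of 14 alpha and 8 of 22 gamma members hold windows of 100 bases that also occur in another member. These made up at most 13.0% of an alpha (Pcdha11) and 10.7% of a gamma first exon (Pcdhgb2). The C-type members hold none.

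The alpha cluster as a whole differed in opposite directions in the pairs. The summed alpha counts were 1326 and 1656 CPM (reads scaled by TMM-normalized library total) in the NC libraries of pairs A and B, and 1693 and 1338 CPM in the anti-miR-124 libraries. A shared read enters these sums once for every member. The groups overlapped, with the lowest values in library NC A and library anti-miR-124 B. The log2 ratio of anti-miR-124 over NC was 0.35 in pair A and -0.31 in pair B, a mean of 0.02 ± 0.47 (SD, n = 2 pairs). The opposite directions depend on joining libraries by column number, and same-numbered libraries did not deviate together over genes (r = -0.16). Joined across the numbers, the sums were alike, 1338 against 1326 CPM (anti-miR-124 B, NC A) and 1693 against 1656 CPM (anti-miR-124 A, NC B). All 14 members were higher in pair A (log2 ratios of 0.33 to 0.37) and all 14 lower in pair B (-0.33 to -0.27), but since they count the same reads these are not separate observations. The direction of the mean depended on single libraries. It was -0.14 without library NC A and -0.15 without library anti-miR-124 A, against 0.18 without NC B and 0.19 without anti-miR-124 B.

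The libraries of 1 group differed more for the alpha cluster than for most other genes. The median absolute log2 difference of its members was 0.32 between the NC libraries and 0.34 between the anti-miR-124 libraries. For 617 other genes of like mean count, 1783 to 2235 reads, it was 0.06 and 0.08. Among these 617 genes, 9 differed by at least the alpha median between the NC libraries, 24 between the anti-miR-124 libraries and 4 in both. The alpha members share reads, so their median stands for about 1 gene of that kind. Gamma members differed by 0.06 and 0.03, beside 0.07 and 0.09 for 240 genes of like count. Beta members differed by 0.14 and 0.12, beside 0.12 and 0.15 for 6363 genes of like count. The median standard error of an alpha log2 fold change was 0.14 against 0.07 in the gamma cluster.

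Ganglion cell markers moved with the alpha cluster from library to library. The median log2 ratio of the 10 markers, among them the transcription factors Pou4f1 and Pou4f2, was 0.45 in pair A and -0.48 in pair B. Their summed level lay between 1052 (A) and 1352 TPM (B) in the NC and between 981 (B) and 1563 TPM (A) in the anti-miR-124 libraries. No marker was at 0, and 1 of 10, Isl2, was higher in both pairs, beside a background of 22.8%. By their medians, bipolar and amacrine markers also split between the pairs, but those of horizontal cells, rods and cones did not. In pairs A and B the medians were 0.22 and 0.11 for 6 horizontal markers and 0.04 and 0.06 for 7 rod markers. For 6 cone markers they were -0.42 and -1.05. The 8 bipolar markers had medians of 0.12 and -0.28, with none on the same side of 0 in both pairs. The 8 amacrine markers had medians of 0.09 and -0.08, with 2 of them higher in both pairs. Medians of pigment epithelium markers (0.81 and -0.06) and of 18 other neuronal recognition molecules (0.14 and -0.07) split likewise. Those of Muller glia (-0.09 and 0.15), astrocyte (-0.05 and 0.79), microglia (-0.09 and 1.66), reactive gliosis (-0.39 and 1.98) and lens markers (-8.46 and 0.24) split the other way. The 12 non-clustered protocadherins, related cadherins encoded by single genes outside the clusters, had medians of 0.30 and -0.17. Over all genes tested the medians were -0.01 and 0.00. The part of RNA from these cell types in the alpha values was not tested.

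**Figure D2:**
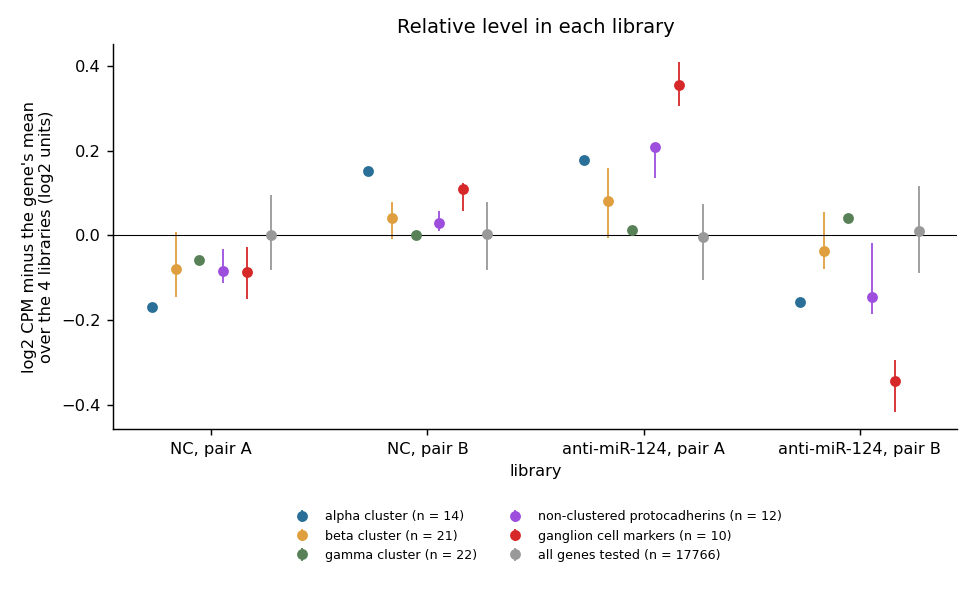
Level of each gene set in each library, as log2 CPM minus the gene's own mean over the 4 libraries (vertical axis, log2 units; horizontal axis, the 4 libraries); points are medians over the genes and bars run from the lower to the upper quartile. The alpha cluster lies at -0.17 and 0.15 in the NC libraries and at 0.18 and -0.16 in the anti-miR-124 libraries, ganglion cell markers at -0.09, 0.11, 0.35 and -0.34, and the gamma cluster between -0.06 and 0.04.

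Within the alpha cluster Pcdhac2 stood furthest above the other members. It had 1814 and 2483 reads in the NC and 2492 and 2152 reads in the anti-miR-124 libraries (pair A, then pair B), and its fold change was 0.06 ± 0.14 (log2, standard error). Above the lowest member, Pcdha8, that left 364 and 452 NC reads and 551 and 444 anti-miR-124 reads. Library anti-miR-124 A was the highest and the other 3 lay at 22.6 to 25.03 CPM. Pcdhac2 thereby held 30.9% to 34.2% of all alpha reads above the lowest member in each library. Its first exon lies at 37143503-37146530 of chromosome 18, next to the constant exons.

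The other C-type member, Pcdhac1, had 22 and 53 NC reads and 46 and 20 anti-miR-124 reads above the lowest member, so it was among the low members. Its whole counts were 1472 and 2084 in the NC and 1987 and 1728 reads in the anti-miR-124 libraries, with a log2 fold change of 0.01 ± 0.15. Of the 12 alternate members, Pcdha4 had 102 and 121 NC reads and 158 and 114 anti-miR-124 reads above the lowest. Pcdha7 had 97 and 132 against 174 and 98, and Pcdha9 had 54 and 109 against 119 and 127. Each of these ranges overlapped between the groups except that of Pcdha9, whose anti-miR-124 values were 119 and 127 reads against 54 and 109. The other named members, Pcdha2 and Pcdha12, had log2 fold changes of 0.01 ± 0.14 and 0.00 ± 0.15. Over all 12 alternate members, reads above the lowest made 42.0 and 53.0 CPM in the NC libraries and 66.1 and 44.9 CPM in the anti-miR-124 libraries, so their own reads were split between the pairs as the shared reads were.

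**Figure D3:**
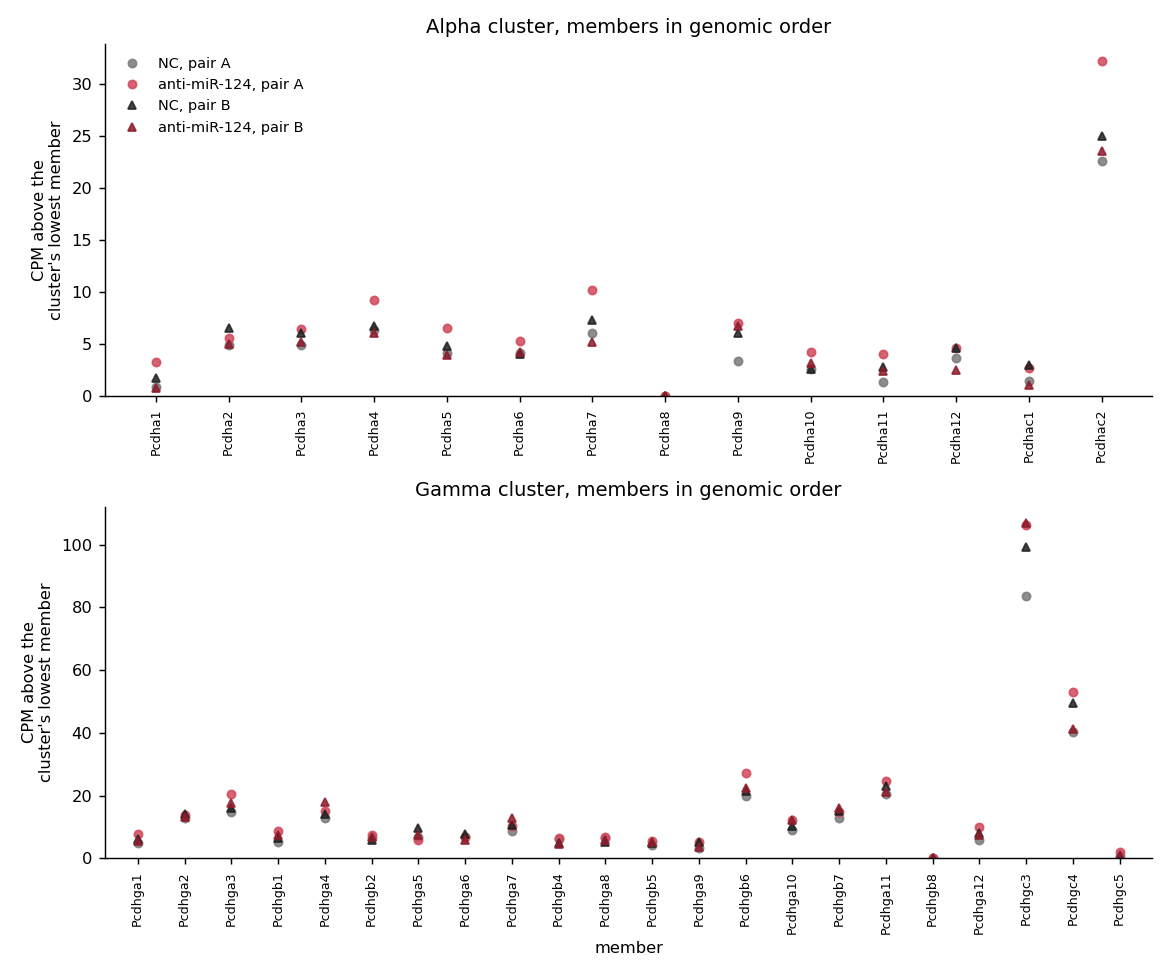
CPM of each alpha and gamma member above the lowest member of its cluster in the same library (vertical axes, linear from 0). Members are in genomic order on the horizontal axes. The value is a lower limit for the reads of a member's own first exon, provided that no antisense reads are counted with it. Circles are pair A, triangles pair B, grey and black the NC and red the anti-miR-124 libraries. Pcdhac2 at 22.6 to 32.3 CPM and Pcdhgc3 at 83.6 to 107 CPM stand above the other members of their clusters in every library, and Pcdha8 and Pcdhgb8 are the lowest in every library.

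The gamma cluster gave the most reads per member and the values most even between libraries. Sums over members repeat the shared reads once for every member, so they do not compare levels between clusters. The summed gamma counts were 6570 and 6848 CPM in the NC libraries and 6922 and 7045 CPM in the anti-miR-124 libraries. Both anti-miR-124 values lay above both NC values. The log2 ratio was 0.08 in pair A and 0.04 in pair B, a mean of 0.06 ± 0.02 (SD, n = 2 pairs), which is as large as the log2 distance of 0.06 between the NC libraries. It was 0.03 without library NC A and 0.09 without library NC B. Scaled to TPM it was 0.11, and from counts above the lowest member 0.18 (0.35 in pair A and 0.02 in pair B). All 22 members were higher in both pairs (21 when scaled by DESeq2 size factors or to TPM), beside 22.8% of all genes tested, and the groups did not overlap for 21 of them, beside 16.5% of all genes tested in that direction. The exception was Pcdhga5, with 4706 and 5517 NC reads and 5186 and 5885 anti-miR-124 reads (292 and 306 against 304 and 312 CPM). These counts share reads and cannot be added up as separate genes. As 1 row per cluster, entered at the count of its lowest member, neither cluster passed an unadjusted p of 0.05 in a test added after the data were seen.

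Pcdhgc3, the first of the gamma C-type members, stood further above the lowest member than any other alpha or gamma member. It had 5943 and 7134 reads in the NC and 6899 and 7757 reads in the anti-miR-124 libraries, of which 1347 and 1790, and 1815 and 2013, lay above the lowest member, Pcdhgb8. In CPM the latter were 83.6 and 99.1 against 106 and 107, so that the anti-miR-124 libraries were both above the NC libraries. The log2 fold change of its whole count was 0.09 ± 0.07 (adjusted p = 0.989), the highest in the cluster. It held 28.7% to 31.3% of all gamma reads above the lowest member.

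An antisense gene lies over that exon. ENSMUSG00000103309.1, on the reverse strand, covers 1513 of the 2568 bases of the first exon of Pcdhgc3 (37806410-37808977). It had 798 and 913 NC reads and 1011 and 1133 anti-miR-124 reads, higher in both anti-miR-124 libraries, with a log2 fold change of 0.25 ± 0.07 (unadjusted p = 0.009, adjusted p = 0.989). The library kit keeps the strand, but whether the counting used it is not given in the sources used here, and without it the reads of such a pair cannot be told apart. Other reverse-strand genes span first exons of members. ENSMUSG00000097330.2 (465 and 572 NC, 578 and 587 anti-miR-124 reads) spans those of Pcdhga10, Pcdhgb7, Pcdhga11 and Pcdhgb8. ENSMUSG00000073594.3 (43 and 87 NC, 98 and 88 anti-miR-124 reads) spans that of Pcdha11. How far their exons overlap these was not computed.

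Pcdhgc4, a member needed for the survival of interneurons, followed with 649 and 895 NC reads and 905 and 775 anti-miR-124 reads above the lowest, overlapping between the groups. Pcdhgc5, known for late expression in the brain, had 11 and 6 NC reads and 35 and 20 anti-miR-124 reads above the lowest. At 6 to 35 reads above a lowest count of 4596 or more, a difference in its own expression was not detectable. The whole-count log2 fold changes were 0.05 ± 0.07 and 0.06 ± 0.07. The 3 gamma C-type members together held 42.7% to 44.2% of the gamma reads above the lowest member, the 12 A-type members 37.5% to 38.6% and the 7 B-type members 17.3% to 18.9%. These shares varied by less than 2 percentage points between libraries. Pcdhgb6 had the most of the B-type members, 322 and 386 NC reads and 463 and 423 anti-miR-124 reads. The remaining named members, Pcdhga5 and Pcdhga6, had the smallest whole-count fold changes of the cluster, 0.04 ± 0.07 and 0.05 ± 0.07.

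Beta members, whose reads are mostly their own, gave separate measurements. Windows of 100 bases that also occur in another member made up a median of 0.21% of a beta transcript and at most 7.73%, for Pcdhb21. Its windows lie where the gene models of Pcdhb21 and Pcdhb22 overlap (37517871-37518325). Neither counted row holds this stretch, since that of Pcdhb21 ends at 37516363 and that of Pcdhb22 begins at 37518353. Outside this pair the highest share was 2.31%, for Pcdhb6, so that few reads could be assigned to either of 2 members. Summed beta counts were 321 and 342 CPM in the NC and 356 and 330 CPM in the anti-miR-124 libraries, with log2 ratios of 0.15 and -0.05 and a mean of 0.05 ± 0.14 (SD, n = 2 pairs). The sum was highest in library anti-miR-124 A and lowest in library NC A. Per kilobase of gene length, the median beta member was at 3.86 to 3.91 CPM in the 4 libraries.

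Pcdhb17 was the highest beta member on every count. It had 664 and 800 NC reads and 727 and 808 anti-miR-124 reads, or 12.6 and 13.5 against 13.0 and 13.1 CPM per kilobase, and its log2 fold change was 0.00 ± 0.08. It held 12.8% of the beta reads in library NC A, with an exact 95% binomial interval from 11.9% to 13.8% that covers counting error only. The 4 libraries did not differ beyond that interval, with shares of 11.9% to 13.0%.

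Pcdhb20, Pcdhb16 and Pcdhb22 came next by level per kilobase, and their order changed between libraries. Pcdhb20 was at 8.83 and 8.36 CPM per kilobase in the NC and 9.38 and 7.22 CPM in the anti-miR-124 libraries. Pcdhb16 was at 5.98 and 7.34 against 8.03 and 7.01, and Pcdhb22, which the naming rule does not take in, at 7.01 and 6.57 against 6.78 and 6.45. Members nearer the gamma end of the cluster had higher levels, with a Spearman's rho between genomic order and CPM per kilobase of 0.69 to 0.72 in the 4 libraries over 21 members. The rank of beta members by count was nearly the same in every library (rho of 0.97 to 0.99), as was that of alpha (0.86 to 0.95) and gamma members (0.92 to 0.98). These are descriptions over members that lie in 1 cluster and were read from the same libraries.

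The beta members with the largest positive fold changes were Pcdhb15 and Pcdhb11. Pcdhb15 had 117 and 170 NC reads and 181 and 184 anti-miR-124 reads, or 7.26 and 9.41 against 10.6 and 9.76 CPM. The anti-miR-124 libraries lay above the NC libraries, although in pair B by only 0.05 on the log2 scale. Its fold change was 0.29 ± 0.19 (log2, standard error; adjusted p = 0.989), but 0.11 without library NC A and 0.49 without library NC B. Pcdhb11 had 235 and 284 NC reads and 309 and 319 anti-miR-124 reads, again without overlap in CPM, and a fold change of 0.21 ± 0.11 (adjusted p = 0.989). At 0.16 without library NC A it was then above Pcdhb15.

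Pcdhb12 and Pcdhb14 had the largest negative ones. Pcdhb12 had 203 and 192 NC reads and 171 and 176 anti-miR-124 reads, or 12.6 and 10.6 against 10.02 and 9.34 CPM, so that both anti-miR-124 libraries were below the NC libraries, with a fold change of -0.26 ± 0.16 (adjusted p = 0.989), or -0.14 without library NC A. The reverse-strand gene ENSMUSG00000103985.1 covers 1927 of its 3034 bases and had 160 and 155 NC reads and 121 and 152 anti-miR-124 reads. Pcdhb14 had 229 and 304 NC reads and 253 and 254 anti-miR-124 reads, which overlapped, and a fold change of -0.14 ± 0.14. This was -0.25 without library NC A, which puts it below Pcdhb12, -0.01 without library NC B and -0.06 without library anti-miR-124 B. It is also among the beta members with a seed match. Of the others with a match, Pcdhb16 had 508 and 699 NC reads and 723 and 696 anti-miR-124 reads (0.17 ± 0.12), and Pcdhb6 had 81 and 119 against 107 and 123 (0.14 ± 0.22). The 3 members with a match thus had fold changes on both sides of 0, and none had an unadjusted p under 0.05. The counted rows of Pcdhb6 and Pcdhb14 end at 37336346 and 37451094, before the gene models searched for matches (37337674 and 37456350). Their counts thus leave out all or part of the 3′ UTR searched, and need not come from transcripts that hold the match. For Pcdhb16 both end at 37483038.

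Over the beta cluster 6 of 21 tested members were higher in both pairs, beside 22.8% of all genes, 3 were lower in both (1 when scaled to TPM), beside 24% of all genes, and 12 went in opposite directions. The groups did not overlap upward for 4 members, Pcdhb11, Pcdhb15, Pcdhb18 and Pcdhb19, beside 16.5% of all genes, nor downward for 2, Pcdhb3 and Pcdhb12, beside 16.8%. The upward counts thus lay above and the downward counts below the background shares. With 21 members these differences are of few genes, and they were not tested. Pcdhb3, Pcdhb18 and Pcdhb19 were chosen after their values were seen. The 14 tested beta members outside the naming rule had log2 fold changes of -0.13 to 0.17. The 7 such alpha members had fold changes of 0.01 to 0.03 and the 16 such gamma members of 0.05 to 0.07. The clusters thus gave 3 patterns in the plot of the pair ratios, in which alpha members lie together in 1 quadrant, gamma members together near 0 and beta members on all sides.

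**Figure D4:**
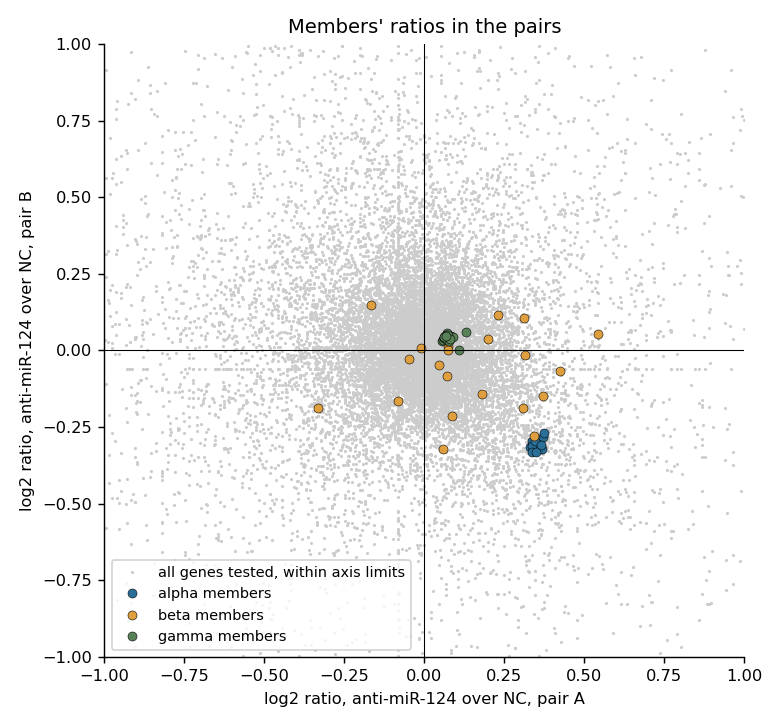
Log2 ratio of anti-miR-124 over NC in pair A (horizontal axis) against pair B (vertical axis) for the 57 tested members, coloured by cluster, over all genes tested whose ratios lie within the axis limits (grey). The 14 alpha members sit together at 0.33 to 0.37 in pair A and -0.33 to -0.27 in pair B, the 22 gamma members at 0.06 to 0.13 and 0.00 to 0.06, and the 21 beta members spread from -0.33 to 0.54 and from -0.32 to 0.15.

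Levels between the clusters could be set side by side per kilobase only with the shared reads in view. The median member was at 17.8 to 22.6 CPM per kilobase of gene length in the alpha cluster and at 64.4 to 68.7 in the gamma cluster, values that include the constant exons. Counted above the lowest member and per kilobase of first exon, Pcdhgc3 was at 32.6 and 38.6 CPM in the NC and 41.4 and 41.6 CPM in the anti-miR-124 libraries. Pcdhgc4 was at 13.9 and 17.1 against 18.2 and 14.2, and Pcdhac2 at 7.46 and 8.27 against 10.7 and 7.78. By these values Pcdhgc3 was higher than every beta member, and Pcdhgc4 was above Pcdhb17 (per kilobase of gene length), in each library. For Pcdhgc3 this assumes that reads of the antisense gene over its first exon were not counted to it, which is not known. That gene had 798 to 1133 reads per library, against 1347 to 2013 reads of Pcdhgc3 above the lowest member.

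None of the genes listed for acting with the clustered protocadherins passed the threshold. Of 15 regulators of promoter choice and chromatin, among them Ctcf and the cohesin subunit Rad21, which bring a promoter to its enhancer, 0 passed an unadjusted p of 0.05, with a median log2 fold change of -0.01 (range -0.09 to 0.09). Ctcf had 2358 and 2785 NC reads and 2557 and 2969 anti-miR-124 reads, and Rad21 4792 and 5335 against 5300 and 5786. Of 20 cytoplasmic partners and processing enzymes, among them Adam10, a protease that sheds protocadherin ectodomains, 0 passed, with a median of 0.02. Of 18 other neuronal recognition molecules, such as Dscam and the sidekicks, 0 passed, with a median of 0.04. Over all genes 2.23% passed upward and 1.68% downward.

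Among the 12 non-clustered protocadherins 1 passed the unadjusted threshold in each direction and 0 after adjustment. Pcdh8, an activity-regulated protocadherin, had 496 and 561 NC reads and 660 and 680 anti-miR-124 reads, higher in both pairs, with a log2 fold change of 0.27 ± 0.08 (unadjusted p = 0.013, adjusted p = 0.989). Pcdh15, a protein of hair cell tip links that is also found at photoreceptors, had 5317 and 5594 NC reads and 4715 and 5464 anti-miR-124 reads, lower in both pairs, with a fold change of -0.18 ± 0.07 (unadjusted p = 0.047, adjusted p = 0.989). Taf7, a general transcription factor gene between the beta and gamma clusters, had 443 and 497 NC reads and 498 and 522 anti-miR-124 reads (0.05 ± 0.08), and Diaph1, beyond the gamma cluster, 576 and 744 against 744 and 778 (0.14 ± 0.10). Neither neighbour passed the unadjusted threshold.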

How the data were processed

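Per the labels, RNA was made into libraries with a directional kit and reads were aligned with HISAT2; the counter is not given in the sources used here. The deposited table holds raw counts per gene and RPKM values, which were not used. The labels name mm9, but 99.8% of 36837 matched symbols overlap their GRCm38 positions, so that GRCm38 (GENCODE M21) was used. Counts were tested with edgeR 4.0.16 (R 4.3.3; quasi-likelihood, TMM, filterByExpr, Benjamini-Hochberg over 17766 genes, checked on simulated counts), with DESeq2 1.42.0 as an alternative. Pair ratios used a prior of 0.5 counts on TMM-scaled CPM. TPM was computed from counts and lengths. With 2 libraries a group no exact permutation test can go below p = 0.333, so none was run on cluster sums.

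Members and lists were chosen with earlier results of these data known. Named members were the C-type members and, per cluster, the 3 with the most reads, the 2 highest and the 2 lowest fold changes, plus any with unadjusted p under 0.05; of the lists named for protocadherin biology, genes under that p were named, others as examples. The test was run without the pair as a covariate, and with the pair as a block as an alternative. Same-numbered libraries did not deviate together over genes (r = -0.16). With 2 libraries a group, this value does not show whether they come from the same mice. No 2 libraries agreed within sampling noise (chi-square per degree of freedom 3.67 to 31.2).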

Additional observations from a re-analysis of the deposited data

How the results depend on the processing

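No member passed an adjusted p of 0.05 in any of the 13 settings of the test (706 fits, lowest adjusted p 0.482). Of 220 alternative fits for the 20 members named by the rule, 18 in 9 members changed sign, 14 of them in the 7 named alpha members without library NC A or anti-miR-124 A. Members under an unadjusted p of 0.05 ranged from 0 to 1 when 1 library was left out, the 1 being Pcdhb20 (log2 fold change -0.25) without library anti-miR-124 A. Genes under an adjusted p of 0.05 numbered 0 as reported, 379 with no filter on low counts, 36 with DESeq2's Wald test and 0 to 256 with 1 library left out (256 without library anti-miR-124 A, 57 without library NC B, 12 without library anti-miR-124 B). With a library left out, the lone library of a group is assumed to vary like the others. Genes under an unadjusted p numbered 694 as reported, 1577 with no filter, 308 with DESeq2 and 333 to 1893 with 1 library left out (333 without library NC A, 1893 without library anti-miR-124 A). With the pair as a replicate block they numbered 376, with 0 after adjustment and 0 members. With crossed numbers in the block, added after the data were seen, they numbered 1306, with 160 after adjustment and 0 members. The cause of these moves was not tested. Scaled to TPM, which moves the median ratio of all genes in pair A from -0.01 to 0.10, members lower in both pairs numbered 1 instead of 3 (14.8% of all genes) and the gamma ratio was 0.11. The gamma ratio was 0.18 (0.35 in pair A, 0.02 in pair B) from counts above the lowest member, an alternative added after the data were seen, and 0.028 to 0.088 with 1 library left out. The alpha and beta ratios stayed within their spread between pairs in every alternative, with values of -0.15 to 0.19 and -0.01 to 0.10 when 1 library was left out. By DESeq2 size factors and by TPM 21 instead of 22 gamma members were higher in pair B.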
